A study of Homo sapiens with 15 samples.

Results

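The DNA replication machinery of K562 cells was followed through 50 genes of origin licensing, helicase activation, DNA synthesis at the fork and S-phase entry, listed by symbol for their role in replication. All 50 were found among the 60649 genes of the count table, and all 50 were among the 23711 genes with enough counts to be tested. K562 is an established chronic myeloid leukemia line that carries the BCR-ABL fusion, and martinostat is an inhibitor of histone deacetylases, the enzymes that remove acetyl groups from histones and other proteins. Poly(A) RNA was sequenced from untreated K562 cells and from cells kept for 24 h in martinostat at 0.15, 0.25, 0.5 or 1 µM, with 3 independent cultures per group and 15 libraries in all. The untreated group is the control, and all groups are the same unmodified cell line grown in serum-containing medium. The question addressed here is how the replication genes moved with dose, as one block or apart.

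Before S phase, the origin recognition complex, CDC6 and CDT1 load the MCM2-7 helicase on DNA, and geminin (GMNN) blocks CDT1 so that no origin is licensed again in the same cycle. Cyclin-dependent kinases and the DBF4-dependent CDC7 kinase then help CDC45 and the GINS complex join MCM2-7, the DNA is unwound, and polymerase alpha-primase, the polymerases delta and epsilon, the clamp PCNA and its loader RFC copy it. Many of these genes are known targets of E2F transcription factors and are transcribed around the G1/S transition in dividing cells.

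The start regions of 3 members are shown because these genes mark the ends of the response. POLE2 was the member that fell most at 1 µM, RFC1 was the member with the highest fold change at that dose, and MCM6 had the lowest fold change within the MCM2-7 helicase at that dose. The sequences are from RefSeq (GRCh38.p14), run 5′ to 3′ on the strand of the gene from 250 bases before its annotated start to 10 bases after it, and have the motif matches in capitals. The regions are chr14:49688205-49688464 (minus strand) for POLE2, chr4:39366353-39366612 (minus strand) for RFC1 and chr2:135876434-135876693 (minus strand) for MCM6.
POLE2: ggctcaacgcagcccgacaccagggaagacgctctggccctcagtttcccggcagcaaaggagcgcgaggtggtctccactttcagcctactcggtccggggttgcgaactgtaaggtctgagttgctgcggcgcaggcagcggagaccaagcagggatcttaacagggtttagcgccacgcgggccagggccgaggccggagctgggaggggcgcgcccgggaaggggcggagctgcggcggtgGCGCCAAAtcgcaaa
RFC1: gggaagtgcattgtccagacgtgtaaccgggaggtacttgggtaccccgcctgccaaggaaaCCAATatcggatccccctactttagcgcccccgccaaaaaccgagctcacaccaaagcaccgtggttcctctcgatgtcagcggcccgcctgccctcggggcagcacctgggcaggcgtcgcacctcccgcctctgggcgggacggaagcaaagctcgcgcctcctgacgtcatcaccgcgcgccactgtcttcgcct
MCM6: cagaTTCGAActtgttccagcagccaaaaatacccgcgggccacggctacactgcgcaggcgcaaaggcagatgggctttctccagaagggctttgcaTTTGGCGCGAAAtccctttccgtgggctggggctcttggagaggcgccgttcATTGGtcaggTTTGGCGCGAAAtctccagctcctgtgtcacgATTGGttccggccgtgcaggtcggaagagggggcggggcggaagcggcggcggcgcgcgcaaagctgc

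Each stretch is one window of bases, and a match describes letters, not a bound site. The E2F words searched were TTTCGCGC, TTTGGCGC, TTTCCCGC and TTTGCCGC on both strands, and in MCM6 2 of them overlap in each of 2 places. The CCAAT box was searched as CCAAT on both strands, and the cell cycle homology region as TTTGAA or TTCGAA on both strands. Windows of 300 bases were found in the RefSeq table for 42 of the 50 members, and 18 of these 42 (42.9%) held an E2F word, against 908 of all 27305 promoters in the table (3.30%). A CCAAT box lay in 23 of the 42 (54.8%) and in 35.7% of all promoters, and a cell cycle homology word in 2 (4.80%) and 16.6%. Among 20 windows of other replication genes, listed further below, 3 held an E2F word, 13 a CCAAT box and 2 a cell cycle homology word. The 18 members with an E2F word had a median log2 fold change of -1.52 at 1 µM and the 24 without one a median of -1.19, values given as a description.

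The libraries held between 23755510 and 32805574 counts. Levels are given as CPM, the counts of a gene per 1000000 counts, on library sizes scaled by TMM, a method that aligns libraries on the bulk of their genes, and "called" means an adjusted p under 0.05 in edgeR's quasi-likelihood test over all 23711 genes. Replicate 3 at 0.25 µM and replicate 3 at 0.5 µM stood apart from their groups: on the third principal component, which held 5.85% of the variance, they scored 48.7 and 52.1, while the other 13 libraries scored 9.51 or less. Replicate 3 was the lowest of its group for 30 of the 50 members at 0.25 µM and for 44 at 0.5 µM. The same count was 35 for untreated replicate 1 and 27 for replicate 2 at 1 µM, so 30 alone does not set a library apart. Results that rest on replicate 3 at 0.25 and 0.5 µM are given with and without these libraries. Of 6 genes that mark K562 cells, 5 were lower at 1 µM, among them GATA1, an erythroid transcription factor, at 5.75% of its untreated level. Of 11 markers of other cell types, 10 could be tested of which 7, 5, 5 and 4 were higher and 1, 1, 5 and 5 lower at the 4 rising doses, and their summed level lay between 186 and 203 CPM in untreated and between 333 and 525 CPM in 1 µM libraries. At 1 µM most of that sum was the collagen gene COL1A1, at 292 to 473 CPM. No marker was at 0 in every library, and the part of these shifts in the results below was not tested.

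Most replication genes were called lower at each dose, and none was called higher than in untreated cells with the scaling and filter used. The summed level of the 50 genes was 9893, 10655 and 10517 CPM in the untreated libraries. It was 5343, 5691 and 5991 CPM at 0.15 µM, 3284, 3422 and 2606 CPM at 0.25 µM, 4169, 4321 and 2587 CPM at 0.5 µM, and 4018, 3768 and 3901 CPM at 1 µM. Every treated library lay below every untreated one, and the lowest sums were those of replicate 3 at 0.25 and 0.5 µM. In RNA pooled from a culture, fewer cells that express a gene and less of its RNA per cell cannot be told apart.

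At 0.15 µM 43 of the 50 members were called lower, against 19.4% of all genes tested, and 0 were called higher, against 31.9%. The counts were 49 lower and 0 higher at 0.25 µM (24.8% and 37.4% of all genes), 42 and 0 at 0.5 µM (27.6% and 39.4%), and 40 and 0 at 1 µM (27.5% and 38.8%). In edgeR 0 members were higher even at an unadjusted p under 0.05, whereas DESeq2 called 1 higher at 0.5 µM and limma on FPKM values 1, 0, 1 and 2 at the 4 doses. The members' median log2 fold change was -1.01, -1.71, -1.32 and -1.27 at the 4 doses, while the median over all genes tested was 0.28, 0.32, 0.34 and 0.32. Among the 10124 genes whose mean reached 10 CPM, a set closer in level to the members, the medians were -0.28, -0.40, -0.37 and -0.39 and 40.2%, 48.7%, 48.8% and 48.4% were called lower. The 3 treated and 3 untreated libraries did not overlap for 47, 50, 46 and 48 members, against 63.2%, 67.5%, 69.9% and 74.9% of all genes tested in either direction. All 50 differed among the 5 groups, as 73.6% of all genes did.

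The 4 doses share the 3 untreated libraries, and their fold changes depend on how library sizes are scaled. Scaling by library totals moved the median of all genes tested to 0.64, 0.84, 0.72 and 0.67, and the median of the members with it, to -0.66, -1.19, -0.98 and -0.92. Taken as a distance from the median of all genes, the members' median was -1.29, -2.03, -1.66 and -1.59 with TMM and -1.30, -2.04, -1.70 and -1.58 with library totals. A change of scaling shifts all genes by nearly the same amount, so this distance could hardly move and its agreement is no check. With both scalings all 50 members lay below the median of all genes at every dose. With only genes of at least 10 counts in every library, the distance was -0.88, -1.48, -1.11 and -1.04. In that setting 49, 50, 46 and 47 members lay below the median of all genes. With library totals 1 member was called higher at 0.15 µM (RPA3), 1 at 0.5 µM (RFC1) and 2 at 1 µM (RFC1 and GINS4).

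**Figure D1:**
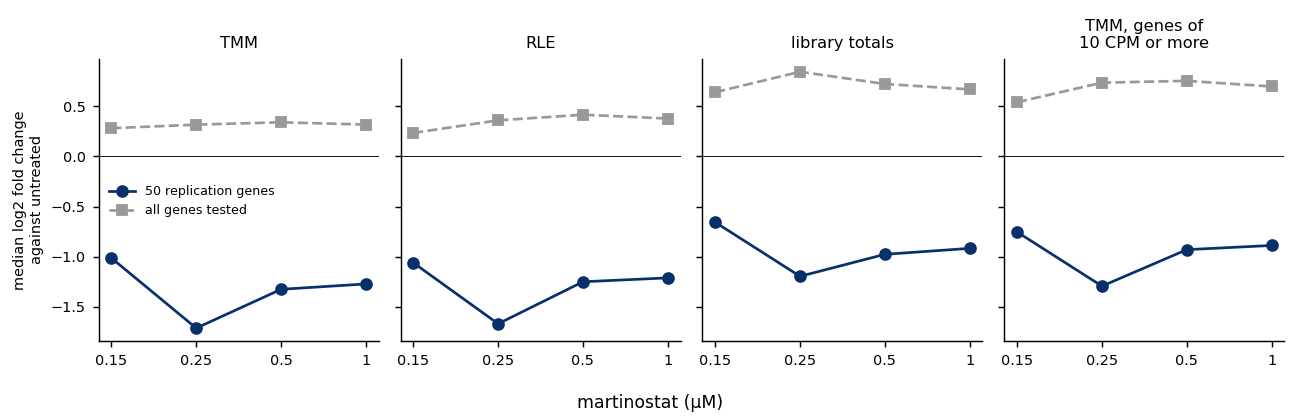
Median log2 fold change against untreated cells (vertical axis) by martinostat dose in µM (horizontal axis) for the 50 replication genes (circles) and all 23711 genes tested (squares), with 4 ways of scaling the libraries. The lines keep nearly the same distance in the 4 panels because a change of scaling shifts all genes nearly alike. The members' median was lowest at 0.25 µM in each.

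The members did not all respond at the same doses. Called lower at all 4 doses were 36 members, against 15.1% of all genes tested, at 3 doses 5, at 2 doses 7, at 1 dose 1 and at no dose 1, which was RPA3, the small subunit of the single-strand binding complex RPA. The mean level was lowest at 0.25 µM for 33 members, at 0.5 µM for 12, at 1 µM for 4 and at 0.15 µM for 1. Without replicate 3 at 0.25 and 0.5 µM these counts were 33, 2, 13 and 2, so the split between 0.5 and 1 µM rested on those libraries. Across the other ways of processing, between 25 and 38 members were lowest at 0.25 µM.

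**Figure D2:**
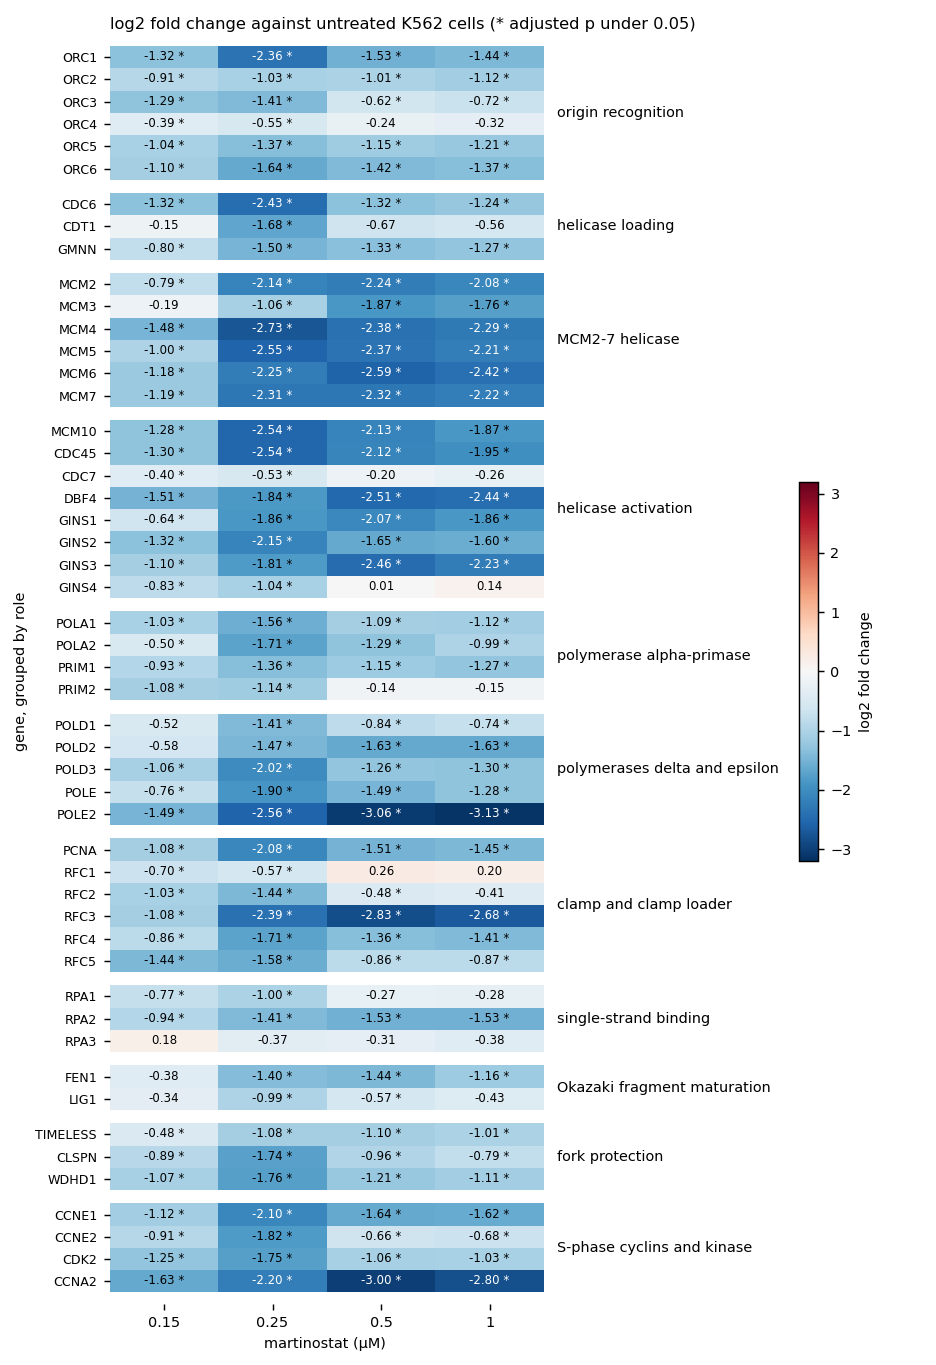
Fold changes of the 50 replication genes (rows, grouped by role) against untreated cells at each martinostat dose (columns, µM); color and printed number are the log2 fold change with TMM scaling, and a star marks an adjusted p under 0.05. The MCM2-7 genes other than MCM3 stayed deep blue from 0.25 µM on, and MCM3 went from -1.06 at 0.25 µM to -1.87 at 0.5 µM. RFC1, GINS4 and PRIM2 were near 0 at 0.5 and 1 µM.

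The 6 subunits of the origin recognition complex, which marks origins in G1, were all called lower at 0.15 and 0.25 µM and 5 of 6 at 0.5 and 1 µM. ORC1, the cell cycle-regulated subunit (chr1:52372829-52404423, minus strand), was at 135, 148 and 149 CPM in untreated cells, 53.8, 64.1 and 55.8 at 0.15 µM, 27.6, 32.6 and 24.1 at 0.25 µM, 60.8, 58.5 and 30.7 at 0.5 µM, and 54.9, 47.4 and 57.2 at 1 µM. All treated libraries were below all untreated ones, and the 0.25 µM libraries were below all of those at 0.15 and 1 µM. The log2 fold change of ORC1 was -2.36 ± 0.21 (SE, n = 3 per group) at 0.25 µM and -1.44 ± 0.20 at 1 µM (edgeR, adjusted p 1.33e-08 and 3.65e-06). ORC4 (chr2:147930396-148021604, minus strand), an ATPase subunit of the complex, changed least, from 61.2, 76.7 and 76.7 CPM in untreated cells to 43.4, 54.4 and 49.2 at 0.25 µM and 60.7, 52.5 and 59.3 at 1 µM. It was called lower at 0.15 and 0.25 µM (log2 fold change -0.39 and -0.55) and not at 0.5 or 1 µM (-0.24 and -0.32, edgeR adjusted p 0.163 and 0.0696), where its sign turned with library totals as scaling (0.14 and 0.04). ORC2, ORC3, ORC5 and ORC6 had log2 fold changes between -1.37 and -0.72 at 1 µM and were called lower at all 4 doses.

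The helicase loaders CDC6 and CDT1 fell to their lowest means at 0.25 µM and stood higher again at 0.5 µM. CDT1 (chr16:88803789-88809258, plus strand) was at 392, 399.7 and 506 CPM in untreated cells, 391, 332 and 443 at 0.15 µM, 159.6, 169.7 and 75.8 at 0.25 µM, 327, 374 and 112 at 0.5 µM, and 303, 253 and 321 at 1 µM. The 0.15 µM libraries overlapped the untreated ones, those at 0.25 µM lay far below them, and replicate 3 at 0.5 µM lay far below the other 2 of its group. CDT1 was called lower at 0.25 µM alone, at a log2 fold change of -1.68 ± 0.37 (edgeR, adjusted p 0.0011), and its values at 0.15, 0.5 and 1 µM were -0.15, -0.67 and -0.56, the first of which turned to 0.20 with library totals as scaling. CDC6 was at 153, 182 and 166 CPM in untreated cells, 29.6, 33.7 and 29.4 at 0.25 µM, and 78.4, 65.0 and 69.3 at 1 µM, and was called lower at all 4 doses. Its log2 fold change was -2.43 ± 0.20 at 0.25 µM and -1.24 ± 0.20 at 1 µM. Geminin (GMNN, chr6:24774931-24786099, plus strand), the CDT1 inhibitor that accumulates in S and G2, was at 119.7, 152 and 134 CPM untreated, 46.1, 52.7 and 45.0 at 0.25 µM, and 57.1, 54.1 and 56.4 at 1 µM. It was called lower at all 4 doses (log2 fold change -0.80, -1.50, -1.33 and -1.27) and the groups did not overlap.

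The MCM2-7 helicase had median log2 fold changes of -1.09, -2.28, -2.34 and -2.22 at the 4 doses, lower from 0.25 µM on than the median of any other role. All 6 subunits were called lower at 0.25, 0.5 and 1 µM, and all but MCM3 at 0.15 µM. MCM6 (chr2:135839626-135876443, minus strand) was at 381, 466 and 439 CPM in untreated cells, 178, 196 and 192 at 0.15 µM, 87.0, 99.0 and 84.5 at 0.25 µM, 75.1, 81.8 and 56.1 at 0.5 µM, and 85.2, 71.7 and 83.8 at 1 µM. Each step down to 0.25 µM left no overlap between groups, and the 0.5 and 1 µM libraries lay close together. At 1 µM MCM6 was at 18.7% of its untreated mean (log2 fold change -2.42 ± 0.16, edgeR, adjusted p 1.47e-10). MCM3 (chr6:52264014-52284881, minus strand) followed later: it was at 712, 805 and 726 CPM in untreated cells and 618, 702 and 649.7 at 0.15 µM. It then stood at 346, 377 and 355 CPM at 0.25 µM, 213, 233 and 167 at 0.5 µM, and 224, 205 and 231 at 1 µM. The 0.15 µM libraries lay just below the untreated ones, and every further dose up to 0.5 µM brought a lower range. The log2 fold change of MCM3 was -0.19 at 0.15 µM (edgeR, adjusted p 0.296), a value that turned to 0.17 with library totals as scaling, -1.06 at 0.25 µM, -1.87 at 0.5 µM and -1.76 at 1 µM. At 1 µM MCM2, MCM4, MCM5 and MCM7 were at 23.7%, 20.5%, 21.5% and 21.4% of untreated, and exons on the other strand cover 23.6% of the exon bases of MCM2.

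Of the 8 genes of helicase activation, all were called lower at 0.15 and 0.25 µM and 6 at 0.5 and 1 µM. DBF4 (chr7:87876216-87909553, plus strand), the activating subunit of the CDC7 kinase, was at 137, 169 and 154 CPM in untreated cells, 57.2, 61.8 and 42.6 at 0.15 µM, 37.7, 47.8 and 42.7 at 0.25 µM, 30.6, 30.1 and 20.5 at 0.5 µM, and 28.7, 27.3 and 29.1 at 1 µM. DBF4 had its lowest mean at 0.5 µM, where replicate 3 lay well below the others. It stood at 18.5% of untreated at 1 µM (log2 fold change -2.44 ± 0.18, edgeR, adjusted p 6.48e-10). CDC7 itself changed little, with log2 fold changes of -0.40 and -0.53 at 0.15 and 0.25 µM, both called, and -0.20 and -0.26 at 0.5 and 1 µM, not called. With library totals as scaling CDC7 was at 0.02, 0.19 and 0.094 at 0.25, 0.5 and 1 µM and was not called. The 4 GINS subunits, which form one complex, parted: at 1 µM GINS1, GINS2 and GINS3 had log2 fold changes of -1.86, -1.60 and -2.23 and GINS4 one of 0.14. GINS4 (chr8:41529218-41545030, plus strand) was at 49.0, 55.7 and 56.1 CPM in untreated cells, 25.6, 34.6 and 30.2 at 0.15 µM, 27.5, 31.2 and 19.7 at 0.25 µM, 55.7, 68.9 and 37.6 at 0.5 µM, and 59.9, 59.5 and 58.1 at 1 µM. It was called lower at 0.15 and 0.25 µM, and at 0.5 µM its libraries spanned the untreated range. At 1 µM all 3 libraries stood above all untreated ones without a call (edgeR, adjusted p 0.531), and with library totals as scaling GINS4 was called higher at that dose. Exons of genes on the other strand cover 23.4% of the exon bases of GINS4, and how the counting treated strand was not given in the sources used here. MCM10 and CDC45, which help build the active helicase, were called lower at every dose and were at 27.3% and 25.9% of untreated at 1 µM.

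The 4 genes of polymerase alpha-primase, which lays down the RNA-DNA primers, were all called lower at 0.15 and 0.25 µM. The primase subunits then parted. PRIM1, the catalytic subunit (chr12:56730438-56752374, minus strand), was at 66.9, 81.4 and 74.2 CPM in untreated cells, 24.4, 35.2 and 27.1 at 0.25 µM, and 29.3, 31.2 and 31.9 at 1 µM. PRIM2, the large subunit (chr6:57314805-57646850, plus strand), was at 67.0, 75.3 and 70.3 CPM in untreated cells, 41.0, 37.0 and 22.7 at 0.15 µM, 28.2, 40.2 and 28.5 at 0.25 µM, 68.6, 75.7 and 49.1 at 0.5 µM, and 71.2, 61.1 and 59.8 at 1 µM. PRIM1 stayed below its untreated range at every dose, while PRIM2 overlapped its own at 0.5 and 1 µM. At 1 µM the log2 fold change was -1.27 ± 0.19 for PRIM1 (edgeR, adjusted p 7.15e-06) and -0.15 ± 0.20 for PRIM2 (adjusted p 0.537), and the latter became 0.21 with library totals as scaling. POLA1 and POLA2, the polymerase subunits, had log2 fold changes of -1.12 and -0.99 at 1 µM, and both were called.

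All 5 genes of the polymerases delta and epsilon were called lower at 0.25, 0.5 and 1 µM and 3 of them at 0.15 µM. POLE2, the second subunit of the leading-strand polymerase epsilon (chr14:49643555-49688422, minus strand), was at 36.6, 40.6 and 36.9 CPM in untreated cells and 15.3, 13.9 and 11.5 at 0.15 µM. It stood at 7.82, 6.90 and 4.65 CPM at 0.25 µM, 5.29, 3.76 and 4.62 at 0.5 µM, and 4.29, 4.59 and 4.18 at 1 µM. No treated library reached the untreated range, and the 0.15 µM libraries lay apart from those above and below them. POLE2 kept 11.5% of its untreated level at 1 µM (log2 fold change -3.13 ± 0.21, edgeR, adjusted p 1.7e-10). POLD1, the catalytic subunit of polymerase delta (chr19:50384204-50418018, plus strand), was at 375, 332 and 359 CPM in untreated cells, 177, 146 and 77.8 at 0.25 µM, 257, 233 and 107 at 0.5 µM, and 209, 235 and 195 at 1 µM. Its groups did not overlap the untreated one, and replicate 3 was lowest at 0.25 and 0.5 µM by a wide margin. The log2 fold change of POLD1 was -1.41 ± 0.29 at 0.25 µM and -0.74 ± 0.29 at 1 µM (edgeR, adjusted p 0.000485 and 0.0319), and its call at 1 µM was lost in 9 of 25 other ways of processing, among them library totals and limma. POLE, POLD2 and POLD3 had values between -1.63 and -1.28 at 1 µM.

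The sliding clamp PCNA and the 5 subunits of its loader RFC were all called lower at 0.15 and 0.25 µM, and the loader subunits then took different courses. RFC3 (chr13:33818069-33966558, plus strand), a small subunit, was at 94.2, 107 and 106 CPM in untreated cells, 48.0, 49.7 and 48.0 at 0.15 µM, 19.8, 21.1 and 17.7 at 0.25 µM, 15.4, 17.8 and 10.2 at 0.5 µM, and 17.0, 14.0 and 16.9 at 1 µM. RFC1 (chr4:39287456-39366375, minus strand), the large subunit, was at 114, 134 and 127 CPM in untreated cells, 67.1, 84.3 and 79.3 at 0.15 µM, 72.5, 84.3 and 95.7 at 0.25 µM, 157, 157 and 135 at 0.5 µM, and 153, 122 and 156 at 1 µM. RFC3 stayed far below its untreated range, whereas RFC1 dropped below it at the lower 2 doses and stood above it in all 3 libraries at 0.5 µM. At 1 µM RFC3 was at 15.6% of untreated (log2 fold change -2.68 ± 0.17, edgeR, adjusted p 1.49e-10). RFC1 was called lower at 0.15 and 0.25 µM (-0.70 and -0.57) and not called at 0.5 or 1 µM (0.26 ± 0.15 and 0.20 ± 0.15, edgeR, adjusted p 0.121 and 0.228), but with library totals as scaling it was called higher at both. RFC2, RFC4 and RFC5, the other small subunits, had log2 fold changes of -0.41, -1.41 and -0.87 at 1 µM, and RFC2 was not called there. PCNA was at 295, 322 and 313 CPM in untreated cells, 75.8, 87.4 and 56.3 at 0.25 µM, and 122, 110.2 and 109 at 1 µM, and was called lower at all 4 doses.

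The single-strand binding complex RPA also split. RPA2 (chr1:27891524-27914746, minus strand), the subunit that is phosphorylated under replication stress, was at 216, 232 and 207 CPM in untreated cells, 103, 122 and 116 at 0.15 µM, 85.9, 87.1 and 74.1 at 0.25 µM, 87.0, 74.6 and 65.0 at 0.5 µM, and 70.5, 86.5 and 70.0 at 1 µM. RPA1 (chr17:1829702-1900082, plus strand), the large DNA-binding subunit, was at 166, 187 and 180.0 CPM in untreated cells, 92.2, 104 and 116 at 0.15 µM, 92.6, 91.5 and 81.9 at 0.25 µM, 157, 165 and 119 at 0.5 µM, and 158, 132 and 149 at 1 µM. RPA2 stayed low, and RPA1 at 0.5 and 1 µM came near its untreated range without entering it. At 1 µM the log2 fold change was -1.53 ± 0.14 for RPA2 (edgeR, adjusted p 2.3e-08) and -0.28 ± 0.14 for RPA1 (adjusted p 0.0989), and that of RPA1 turned to 0.08 with library totals as scaling. RPA3 was at 48.4, 51.2 and 52.5 CPM in untreated cells, 58.2, 48.3 and 66.1 at 0.15 µM, and 41.0, 39.6 and 36.6 at 1 µM, and missed the threshold at all 4 doses (log2 fold change 0.18, -0.37, -0.31 and -0.38), but was called higher at 0.15 µM with library totals as scaling.

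FEN1 and LIG1, the flap nuclease and the ligase that join Okazaki fragments, were not called at 0.15 µM and were called lower at 0.25 and 0.5 µM. The LIG1 call at 0.5 µM was lost in 6 of 25 other ways of processing, among them library totals and limma. FEN1 (chr11:61792911-61797238, plus strand) was at 251, 266 and 252 CPM in untreated cells, 114, 107 and 70.7 at 0.25 µM, and 123, 111 and 110.0 at 1 µM. LIG1 (chr19:48115445-48170603, minus strand) was at 129, 138 and 151 CPM in untreated cells, 82.3, 78.7 and 49.96 at 0.25 µM, and 107, 98.4 and 105 at 1 µM. Both lay below their untreated range in all these libraries, FEN1 by more. At 1 µM the log2 fold change of FEN1 was -1.16 ± 0.23 (edgeR, adjusted p 0.000257) and that of LIG1 -0.43 ± 0.19 (adjusted p 0.0605).

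The 3 genes that travel with the fork or guard it were called lower at all 4 doses. WDHD1 (chr14:54938949-55027105, minus strand), which links the helicase to polymerase alpha, was at 77.9, 83.1 and 85.1 CPM in untreated cells, 24.4, 25.4 and 23.0 at 0.25 µM, and 37.9, 34.0 and 42.2 at 1 µM. CLSPN (chr1:35720218-35769978, minus strand), the checkpoint mediator claspin, was at 133, 127 and 129 CPM in untreated cells, 43.6, 33.2 and 39.6 at 0.25 µM, and 80.7, 69.2 and 75.1 at 1 µM. Both were lowest at 0.25 µM with no overlap with either neighboring dose. At 1 µM the log2 fold change was -1.11 ± 0.14 for WDHD1 and -0.79 ± 0.15 for CLSPN, and TIMELESS, a fork protection factor, was at -1.01.

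The S-phase cyclins and CDK2 were called lower at all 4 doses. CCNA2, the cyclin A that drives S phase and G2 (chr4:121816444-121823883, minus strand), was at 404, 446 and 433 CPM in untreated cells, 156, 149 and 110.0 at 0.15 µM, 92.3, 125 and 61.6 at 0.25 µM, 60.3, 73.1 and 26.8 at 0.5 µM, and 60.2, 57.0 and 66.6 at 1 µM. Its libraries at 0.5 and 1 µM were all below those at 0.15 µM, and it kept 14.3% of its untreated level at 1 µM (log2 fold change -2.80 ± 0.31, edgeR, adjusted p 7.38e-07). CCNE2, a cyclin E that partners CDK2 at the G1/S transition (chr8:94879770-94896678, minus strand), was scarce, at 9.35, 11.8 and 12.5 CPM in untreated cells, 2.54, 2.97 and 3.98 at 0.25 µM, and 6.81, 7.11 and 7.07 at 1 µM. Its log2 fold change was -1.82 ± 0.28 at 0.25 µM and -0.68 ± 0.27 at 1 µM (edgeR, adjusted p 1.76e-05 and 0.0335), and 37.1% of its exon bases lie under exons of genes on the other strand. The CCNE2 calls at 0.5 and 1 µM were each lost in 10 of 25 other ways of processing, RLE scaling and library totals included, and that at 0.5 µM also with DESeq2 and with a replicate block. CCNE1 and CDK2 were at 32.5% and 48.9% of untreated at 1 µM.

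**Figure D3:**
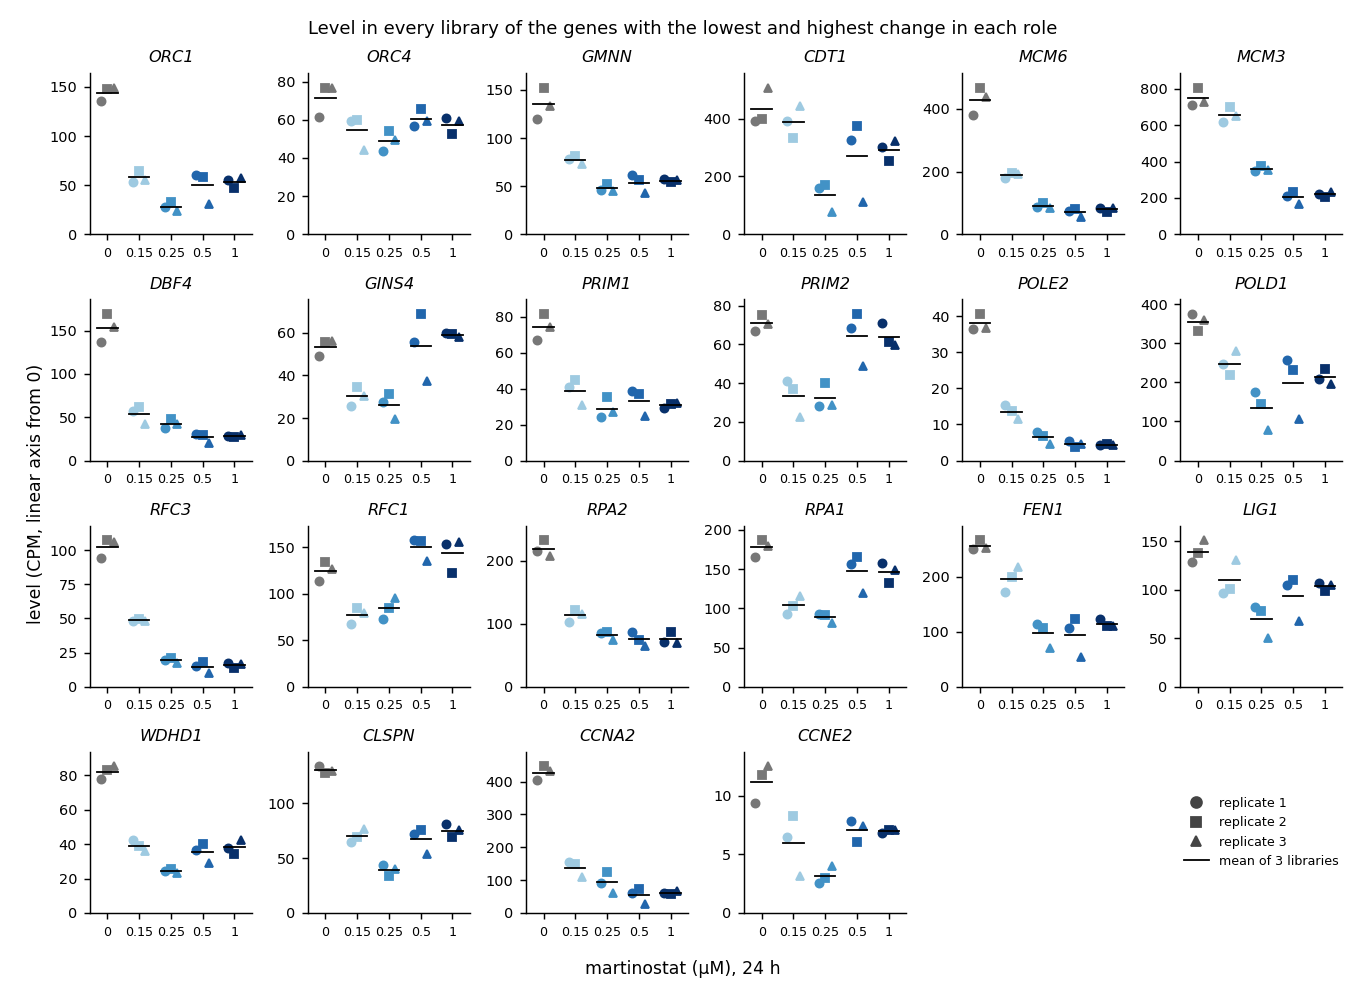
Level in CPM (linear vertical axes from 0) in each of the 15 libraries by martinostat dose in µM for the gene with the lowest and the gene with the highest fold change at 1 µM in each role; symbols are libraries by replicate number and bars are means of 3 libraries. GINS4, PRIM2, RFC1 and RPA1 rose again at 0.5 µM, while MCM6, DBF4, POLE2, RFC3 and CCNA2 stayed low.

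Between 0.15 and 0.25 µM 33 members were called lower and 0 higher, against 7.32% and 4.96% of all genes tested. The median step was -0.84 for the members and 0.02 for all genes. All 6 MCM2-7 genes and all 3 helicase loading genes took part, and the largest steps were those of MCM5 (-1.56) and CDT1 (-1.53). In the origin recognition complex 1 of 6 genes was called, ORC1. Without replicate 3 at 0.25 and 0.5 µM 34 members were called lower, 32 of them among the 33.

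From 0.25 to 0.5 µM more members were called higher than lower. Called higher were 18 of the 50, against 14.4% of all genes tested, and called lower 4, against 16.0%, while 28 were not called. The median step was 0.38 for the members and 0.02 for all genes. The 18 were the licensing genes ORC1, ORC3, CDC6 and CDT1, the helicase subunit GINS4, the polymerase subunits POLA1, PRIM2 and POLD3, the clamp and loader genes PCNA, RFC1, RFC2 and RFC5, RPA1, the fork genes CLSPN and WDHD1, and CCNE1, CCNE2 and CDK2. The 4 that fell further were MCM3 (-0.81), CCNA2 (-0.80), DBF4 (-0.66) and GINS3 (-0.65). Of the 18, 11 had also been called lower from 0.15 to 0.25 µM, CDC6 with steps of -1.11 and then 1.12. The calls of CDT1, CCNA2 and CCNE1 were the least stable of the 22, and held in 9, 10 and 11 of 25 other ways of processing. Without replicate 3 at both doses 27 members were called higher, against 15.8% of all genes, the 18 included. In that setting 5 were lower, against 16.8%, the 4 and POLE2. With library totals as scaling the counts were 16 higher, against 10.2% of all genes, and 7 lower, against 19.1%.

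**Figure D4:**
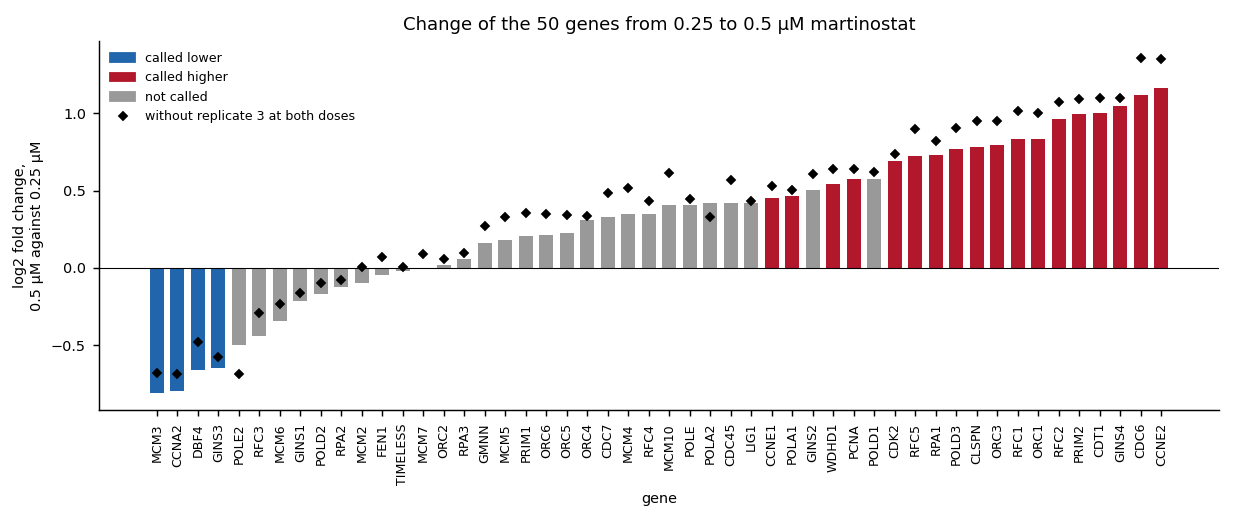
Log2 fold change from 0.25 to 0.5 µM martinostat (vertical axis) of the 50 replication genes (horizontal axis, sorted); bars are from all libraries and colored by call, and diamonds leave out replicate 3 at both doses. Steps ran from -0.81 for MCM3 to 1.16 for CCNE2, and leaving out replicate 3 moved most genes up.

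From 0.5 to 1 µM no member was called in either direction with edgeR, as for all genes tested (0% lower and 0% higher), and none reached an unadjusted p under 0.05, which 372 of 23711 genes did. DESeq2 and limma called 0 members as well. The largest log2 step among the members was 0.30, and the median step was 0.07, with 16 members below the median of all genes. Without replicate 3 at 0.25 and 0.5 µM the median step was -0.089, with 41 members below the median of all genes and 0 called. The sign of this small step thus depended on those libraries. Between 0.15 and 1 µM 24 members were called lower, against 23.1% of all genes, and 7 higher, against 21.5%. Those higher at 1 µM than at 0.15 µM were GINS4, ORC3, PRIM2, RFC1, RFC2, RFC5 and RPA1. Without replicate 1 at 0.15 µM 4 members were called higher in that comparison.

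Shares of subunits within a complex, taken from CPM per kilobase of exon in each library, do not depend on library scaling. MCM3 made up 27.6% ± 0.957 (SD, n = 3) of the summed MCM2-7 level in untreated cells, 42.7% ± 2.73 at 0.15 µM, 48.4% ± 4.72 at 0.25 µM and 34.7% ± 1.40 at 1 µM. Its lowest share at 0.25 µM was 44.8%, above the highest untreated share of 28.6%. GINS4 went from 9.67% ± 0.482 of the GINS subunits in untreated cells to 18.2% ± 1.02 at 0.25 µM and 27.2% ± 0.0341 at 1 µM, while GINS3 went from 7.82% ± 0.577 to 4.26% ± 0.627. In RFC, RFC1 went from 10.1% ± 0.473 to 19.7% ± 3.91 at 1 µM and RFC3 from 19.6% ± 1.07 to 5.12% ± 0.898. In RPA, RPA1 went from 20.4% ± 0.853 to 34.7% ± 4.07 and RPA2 from 69.6% ± 1.35 to 49.6% ± 4.48. The untreated and 1 µM libraries did not overlap for any of these shares, and they were not tested. All of these subunits but GINS3 were picked as an end of their role at 1 µM, so this separation was in part fixed by the choice. Of the other subunits of these complexes and of the origin recognition complex, MCM2, MCM5, MCM7, ORC2, ORC5 and ORC6 overlapped. The rest did not.

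**Figure D5:**
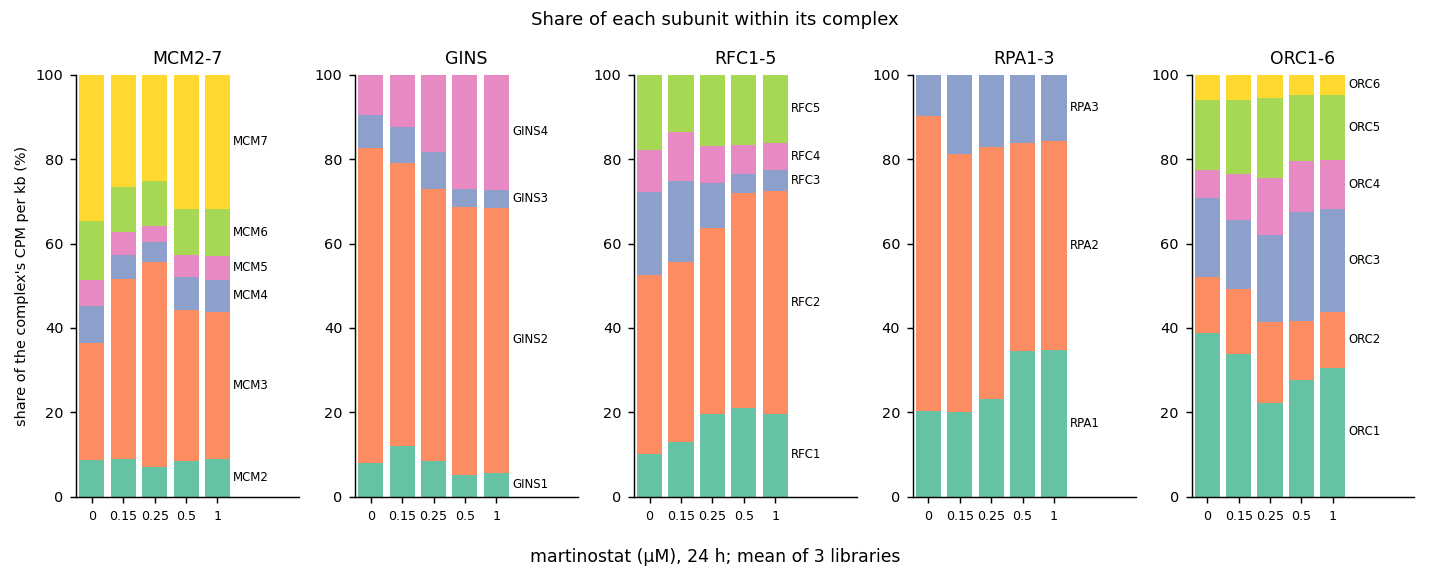
Mean share (%) of each subunit in the summed CPM per kilobase of its complex (vertical axis, 3 libraries per bar) by martinostat dose in µM. MCM3 took 48.4% of MCM2-7 at 0.25 µM, and GINS4 went from 9.67% to 27.2% of GINS at 1 µM.

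Ratios of the counts of 2 genes within a library were compared between untreated and 1 µM cells for 5 pairs with a two-sided exact permutation test, which with 3 against 3 libraries cannot give a p below 0.1. RPA2 to RPA1 was 1.30, 1.24 and 1.15 in untreated libraries and 0.445, 0.656 and 0.469 at 1 µM, a log2 difference of -1.25 (exact p 0.1, adjusted over 5 ratios 0.125). CCNE1 to CCNA2 went from 0.191, 0.195 and 0.181 to 0.399, 0.597 and 0.315, a difference of 1.16 (exact p 0.1, adjusted 0.125). The groups were fully apart for both pairs. CDT1 to GMNN and POLD1 to POLE were also apart, with differences of 0.71 and 0.55 (exact p 0.1, adjusted 0.125 each). In RPA2 to RPA1 and in CDT1 to GMNN both genes were ends of their role at 1 µM. CCNA2 and POLD1 were each such an end as well. The separation of these pairs was thus in part fixed by the choice of genes, and their p-values are no separate support. CDC6 to GMNN had a mean of 1.24 in untreated cells, 0.859 at 0.15 µM, 0.645 at 0.25 µM and 1.27 at 1 µM, so the difference at the top dose was 0.03 (exact p 0.8) after a dip at the lower doses.

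Per kilobase of exon, the most abundant member in untreated cells was MCM7 at 258 CPM per kilobase, the scarcest was POLA2 at 2.05, and the median member was at 31.7. The length used joins all annotated exons of a gene and can exceed that of its main transcript. It was 12006 bases for POLA2, 4960 for MCM7 and 2760 for CDT1, so these ranks depend on the annotation. At 0.15 and 0.25 µM the most abundant was MCM3, at 180.2 and 98.6 CPM per kilobase, and at 0.5 and 1 µM it was CDT1, at 98.2 and 106.0. The median member was at 12.6, 8.66, 11.9 and 12.6 CPM per kilobase at the 4 doses.

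Another 27 genes of replication were listed as accessory subunits, loader variants and chromatin assembly factors, with earlier results of these data known. At the 4 doses 17, 21, 21 and 21 were called lower, against 19.4%, 24.8%, 27.6% and 27.5% of all genes tested. Called higher were 1, 1, 3 and 3, against 31.9%, 37.4%, 39.4% and 38.8%. Their median log2 fold change was -0.84, -1.48, -1.30 and -1.13. POLE3, an accessory subunit of polymerase epsilon, was at 319, 316 and 306 CPM in untreated cells and 42.9, 58.1 and 41.4 at 1 µM (log2 fold change -2.72 ± 0.17), and MCMBP, which binds MCM subunits, was at -2.29. The gene called higher at all 4 doses was POLD4, the smallest polymerase delta subunit, which went from 3.10, 2.43 and 2.78 CPM in untreated cells to 14.8, 12.5 and 17.4 at 0.15 µM and 20.3, 32.3 and 18.4 at 1 µM. Its log2 fold change was 2.42 at 0.15 µM and 3.09 at 1 µM (edgeR, adjusted p 1.98e-07 and 3.04e-09), and genes on the same strand share 21.3% of its exon bases. CHTF18, of an alternative clamp loader, was at 67.6, 71.5 and 65.3 CPM in untreated cells, 67.2, 48.2 and 47.1 at 0.25 µM, and 147, 168 and 135 at 1 µM, and ASF1B, a histone chaperone, had a log2 fold change of 1.07 at 1 µM. Both were called higher at 0.5 and 1 µM, and in these 3 genes the direction was away from that of the members.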

How the data were processed

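Total RNA was extracted by the authors from 15 K562 cultures, poly(A) RNA was selected from it, and libraries were made with a directional kit. According to the methods and the submitters' processing notes, reads were trimmed with Trim Galore 0.6.10 and Trimmomatic, aligned to hg38 with HISAT2 2.2.1, sorted with SAMtools 1.21 and counted per GENCODE gene with featureCounts 1.5.3. The strand setting was not given in the sources used here. The deposited counts were raw and unnormalised. The deposited FPKM values had been made by the authors from the same counts with one length per gene, and served in one alternative, as log2(FPKM + 1) in limma 3.58.1.

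Groups and replicate numbers came from the labels. Genes were filtered with filterByExpr, scaled by TMM and fitted in one model of the 5 groups with edgeR 4.0.16 (R 4.3.3), with quasi-likelihood F tests and Benjamini-Hochberg adjustment over 23711 genes. SE is an approximate standard error of the log2 fold change, its absolute value divided by the square root of the F statistic. It rests on the spread estimated in the fit of all 15 libraries. The scripts were tested on simulated data. With 3 libraries per group, the biological coefficient of variation was 0.228. Symbols, exon lengths and positions came from GENCODE v44 on hg38, a later release than the one counted on. Same-numbered libraries at 0.25 and 0.5 µM deviated together (r = 0.266, 0.268 and 0.579). Between other groups r was 0.0918 or less. Deviations from a mean of 3 libraries cancel out, so a shift shared by replicate 3 alone can raise all 3 values of r. The 3 values are therefore not separate signs of pairing. The fit reported did not pair libraries, and a replicate block was among the alternatives.

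The genes given library by library are the member with the lowest and the member with the highest fold change at 1 µM in each of 11 roles, with any member called higher than in untreated cells or called in opposite directions (there was none). Promoters are those of the lowest and highest member and of the lowest MCM2-7 gene. Other genes given by library (CDC6, PCNA, RPA3, POLE3, POLD4, CHTF18) were chosen after their values were seen. Members and lists were chosen with earlier results of these data known. The alternatives were other scalings, filters and tools, a replicate block, and libraries left out. Amino acid sequences were not used here.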

Additional observations from a re-analysis of the deposited data

How the results depend on the processing

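Counts of calls and fold changes were recomputed under 25 alternatives, and against untreated cells the calls of 36 of 43 members at 0.15 µM, 46 of 49 at 0.25 µM, 37 of 42 at 0.5 µM and 37 of 40 at 1 µM held in all of them. Between 0.15 and 0.25 µM 22 of 33 calls held in all, between 0.25 and 0.5 µM 12 of 22, and between 0.15 and 1 µM 22 of 31. The least stable call against untreated cells was that of RFC2 at 0.5 µM, which held in 6 of 25. The count of members called higher than in untreated cells was 0 in the fit reported and moved with the scaling, the filter, the tool and the libraries. At 0.5 µM the count was 1 with RLE scaling, library totals, at least 10 counts in every library, DESeq2, limma on FPKM, or without replicate 3 at 0.25 and 0.5 µM, and 2 with TMM from genes of at least 10 CPM. At 0.15 µM it was 1 with library totals, TMM from genes of at least 10 CPM or limma. At 1 µM it was 2 with those 3 settings and 1 with at least 10 counts in every library. From 0.25 to 0.5 µM 7 members were lower with library totals or at least 10 counts in every library, and in a fit of only the libraries compared 2 were lower and 11 higher. With one library left out in turn, between 4 and 7 members were higher at 1 than at 0.15 µM, and the log2 ratio of CDC6 to GMNN differed by -0.027 to 0.070 between untreated and 1 µM cells.

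Against untreated cells 1 called fold change turned sign, that of CDC7 at 0.25 µM, which was at 0.020 with library totals and not called there. The others that turned sign were not called before or after. The log2 values were, for library totals, TMM from genes of at least 10 CPM and limma in that order, 0.20, 0.11 and 0.20 for CDT1 at 0.15 µM, 0.17, 0.074 and 0.17 for MCM3 at 0.15 µM, 0.14, 0.17 and 0.055 for ORC4 at 0.5 µM, 0.041, 0.068 and 0.016 for ORC4 at 1 µM, 0.21, 0.26 and 0.033 for PRIM2 at 0.5 µM, 0.21, 0.24 and 0.032 for PRIM2 at 1 µM, 0.085, 0.13 and 0.057 for RPA1 at 0.5 µM, and 0.076, 0.10 and 0.050 for RPA1 at 1 µM. LIG1 at 0.15 µM turned to 0.012 with library totals and 0.0054 with limma. With at least 10 counts in every library ORC4 was at 0.026 and PRIM2 at 0.12 at 0.5 µM, and PRIM2 at 0.094 at 1 µM. PRIM2 at 0.5 µM was at 0.063 without replicate 3 at 0.25 and 0.5 µM and, with one library left out in turn, between -0.27 (without replicate 2 at 0.5 µM) and 0.026 (without replicate 3 at 0.5 µM). GINS4 at 0.5 µM lay between -0.20 and 0.22 with one library left out in turn, at -0.05 without untreated replicate 1, -0.01 without replicate 1 and -0.20 without replicate 2 at 0.5 µM. CDC7 turned sign at 0.5 and 1 µM, where its highest values were 0.22 and 0.12, and RPA3 at 0.25, 0.5 and 1 µM, where they were 0.14, 0.082 and 0.0057. The causes were not tested.

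With a replicate block the counts of members lower than in untreated cells were 43, 49, 41 and 40, none was higher, and from 0.25 to 0.5 µM 4 were lower and 17 higher. GINS4 at 0.5 µM was at -0.019 with the block. Paired differences gave the same 5 log2 ratios, as they must with equal numbers. The lowest count of any member in any library was 75, for CCNE2.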
